A study of Danio rerio with 6 samples.

Results

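Retinoic acid is a small lipid made from vitamin A that acts by binding nuclear receptors, and its level in a tissue is set by where it is made and where it is broken down. Retinol is oxidised to retinaldehyde, aldehyde dehydrogenases such as Aldh1a2 oxidise retinaldehyde to retinoic acid, and the Cyp26 cytochromes P450 degrade it. Retinoic acid receptors pair with retinoid X receptors on DNA, and in the regenerating zebrafish fin this signalling is known to be required for the blastema to form and to affect how bone-forming cells redifferentiate. Measured here were 6 genes of this system, chosen by their Ensembl identifiers: the synthesis gene aldh1a2 (ENSDARG00000053493), the breakdown genes cyp26a1 (ENSDARG00000033999) and cyp26b1 (ENSDARG00000077121), and the receptor genes raraa (ENSDARG00000056783), rarab (ENSDARG00000034893) and rarga (ENSDARG00000034117). They are 6 of 31901 identifiers in the count tables.

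The tissue was regenerating caudal fin of zebrafish carrying an shha:eGFP transgene, a green fluorescent reporter of the Hedgehog ligand gene shha, taken 96 hours post amputation. The reporter domain lies distally, and it guided the cut of each regenerate into a distal and a proximal piece, so the comparison asks which genes differ along the outgrowth. There were 3 distal and 3 proximal samples, numbered 2, 3 and 4 in both regions, and each sample pooled tissue from 4 fins. All samples carried the same transgene and time point, and no uncut fin was used here.

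The libraries held between 20113859 and 23629159 gene-assigned reads. Levels are given as CPM, the counts of a gene for every 1000000 such reads, and 3 reads made 0.127 to 0.149 CPM. The gene listed as SHH (ENSDARG00000068567) was at 14.0, 19.0 and 20.1 CPM in the distal samples and at 6.73, 5.76 and 5.35 CPM in the proximal samples, in the direction of the labels, and the Wnt effector gene lef1 was also higher in distal tissue (165 against 96.9 CPM on average). Distal blastema markers (msx1b, msx3, wnt5b and wnt5a) were higher in distal tissue for 4 of 4 genes, with a summed level of 615 to 711 CPM in distal and 160 to 197 CPM in proximal samples. Epidermal markers were higher in proximal tissue for 4 of 6 genes (27605 to 29524 CPM summed in distal, 65222 to 75251 in proximal samples). The keratin genes krt5, krt91 and krt4 made up most of that sum. Uncalled were cdh1, with every distal sample above every proximal one (1094 against 859 CPM on average), and epcam (943 against 957 CPM). Also higher in proximal tissue were 3 of 3 leukocyte markers (66.3 to 75.2 against 86.2 to 132 CPM) and 5 of 6 pigment cell markers (8.06 to 12.1 against 35.0 to 54.7 CPM). The remaining pigment cell marker, a MITF identifier (ENSDARG00000037833), was called toward distal tissue (4.67 against 2.40 CPM on average). Among fibroblast and blastema mesenchyme markers, 4 of 7 tested were called toward distal and 1 toward proximal tissue (10419 to 12102 against 6254 to 7184 CPM summed). The largest distal excess in CPM was in and1 (5364 against 1229 on average) and and2 (2136 against 183). The gene called toward proximal tissue was col1a2 (3583 against 5204 CPM). Osteoblast markers were called toward proximal tissue for 3 of 7 tested genes (2929 to 3637 against 4826 to 7134 CPM summed). The called ones were spp1 and both COL10A1 identifiers, and COL10A1 made up most of the sum. Uncalled were sp7, runx2b and RUNX2, which leaned distal (log2 fold changes 0.46, 0.24 and 0.12), and ENTPD5 (-0.20). When same-numbered samples were treated as pairs, sp7 was called toward distal tissue (log2 fold change 0.52, edgeR adjusted p = 0.00596). The genes runx2b, RUNX2 and ENTPD5 stayed uncalled in that paired comparison. The list thus did not point in 1 direction. The osteocalcin gene of mature bone cells, bglap, had at most 2 reads in a library. For endothelium, 1 of 3 tested markers was higher in proximal tissue (50.2 to 56.5 against 49.4 to 85.6 CPM summed), as were 2 of 2 tested nerve and glia markers, sox10 and foxd3 (0.671 to 1.39 against 5.29 to 6.81 CPM summed over the list). Of all tested genes, 15.3% were called toward distal and 14.4% toward proximal tissue (edgeR adjusted p under 0.05), and these short lists were not tested as sets. In bulk tissue, fewer cells of a type and less RNA per cell cannot be told apart, and the part of these differences in the results below was not tested.

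Distal tissue held more transcript of the synthesis gene aldh1a2 and less of the receptor gene raraa, while the receptor gene rarga did not separate the regions. The call of aldh1a2 held in all 17 alternative fits, and that of the scarce raraa in 9 of the 16 that tested it. The 6 genes were above the filter on low counts in all 6 libraries. Of them, 2 passed an adjusted p-value of 0.05 in the comparison of regions (edgeR quasi-likelihood test, Benjamini-Hochberg adjustment over all tested genes), 1 in each direction. Of all 18455 genes tested, 29.7% passed, with 15.3% higher distally and 14.4% higher proximally, so the share among the 6 genes was near the background. The same-numbered samples deviated together in both regions, and with the replicate number as a block 4 of the 6 genes passed, 2 in each direction, against 48.4% of all tested genes (23.3% higher distally and 25.1% higher proximally). The CPM ranges of the regions did not overlap for 2 of the 6 genes, 1 in each direction, against 46.5% of tested genes (30.1% with distal and 16.4% with proximal tissue above).

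**Figure D1:**
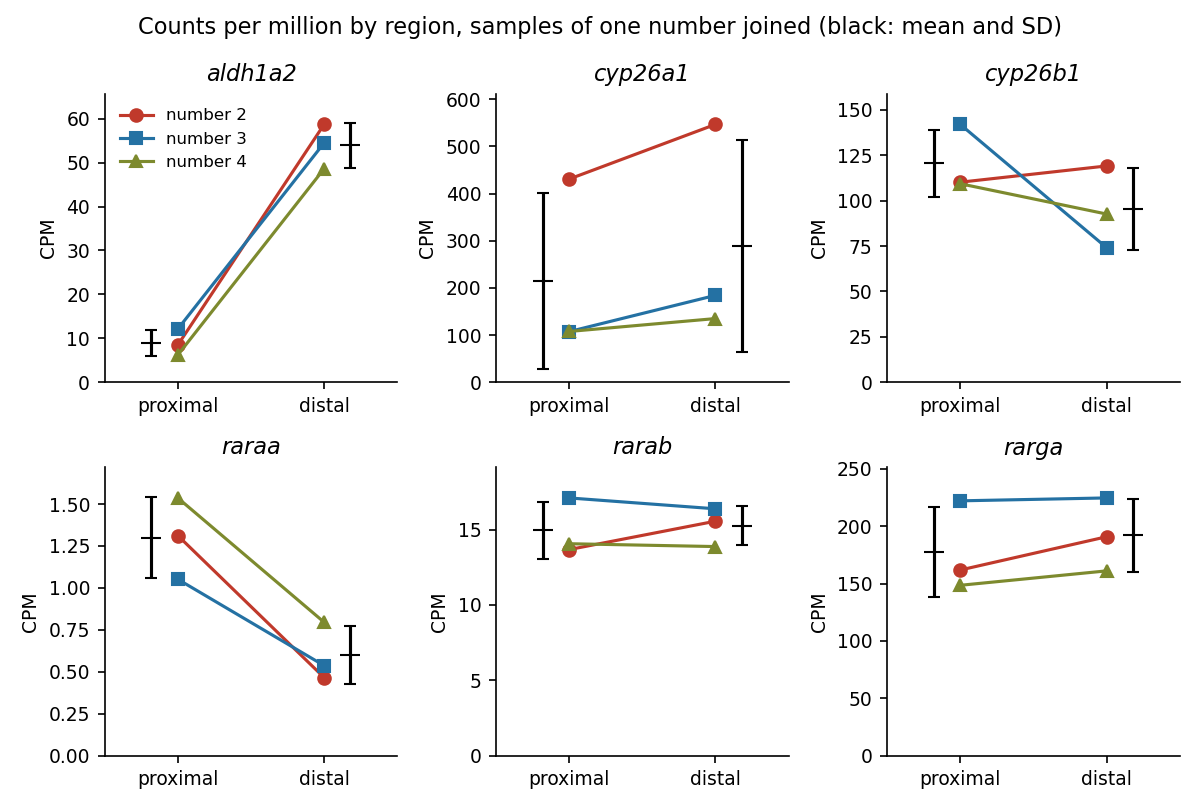
Level of each of the 6 genes in CPM (vertical axis, from 0) in proximal and distal samples, with lines joining samples of one number and black bars giving the region mean and SD (n = 3). The distal samples lie above the proximal ones for aldh1a2 and below them for raraa, and both samples numbered 2 stand high for cyp26a1.

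The synthesis gene aldh1a2 was at 58.7, 54.5 and 48.6 CPM in distal samples 2, 3 and 4, and at 8.46, 12.1 and 6.19 CPM in proximal samples 2, 3 and 4. Every distal sample was above every proximal sample, and the lowest distal value exceeded the highest proximal one. The region means were 53.9 ± 5.07 and 8.92 ± 2.99 CPM (SD, n = 3 each). The level was 5.59-fold higher in distal tissue (log2 fold change 2.48, SE 0.21, edgeR adjusted p = 0.000103). The log2 ratios within numbers 2, 3 and 4 were 2.79, 2.17 and 2.97. Of the 18455 tested genes, 519 (2.81%) had an absolute log2 fold change at least as large as that of aldh1a2. The call held in all 17 alternative fits, with log2 fold changes from 2.30 to 2.76.

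The breakdown gene cyp26a1, which retinoic acid itself is known to induce in vertebrate embryos, varied more between replicate numbers than between regions. In distal samples 2, 3 and 4 it was at 546, 184 and 135 CPM. In proximal samples 2, 3 and 4 it was at 431, 107 and 107 CPM. Both samples numbered 2 were far above the other four, and the ranges of the regions overlapped. The region means were 288 ± 225 and 215 ± 187 CPM (SD, n = 3 each), and the region difference did not pass the test (log2 fold change 0.31, 95% interval -1.23 to 1.85, edgeR adjusted p = 0.768). Within each number the distal sample was the higher, with log2 ratios of 0.34, 0.78 and 0.33. With the replicate number as a block the difference passed, at 0.36 on the log2 scale (SE 0.10, edgeR adjusted p = 0.0117). The unpaired value turned negative without distal sample 2 (-0.56, adjusted p = 0.566) and without proximal sample 3 (-0.017, adjusted p = 0.989), and neither passed the threshold. Such fits keep 1 sample of a number without its partner, and the samples numbered 2 were high in both regions. Without both samples numbered 2, the log2 fold change in the unpaired fit was 0.43 (edgeR adjusted p = 0.169), and without proximal sample 2 alone it was 1.31 (adjusted p = 0.165).

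The breakdown gene cyp26b1 leaned the other way. In the unpaired edgeR test its p-value was 0.0383 before the adjustment over all tested genes, and it was not called after it. Its levels in distal samples 2, 3 and 4 were 119, 74.1 and 92.6 CPM. In proximal samples 2, 3 and 4 they were 110, 142 and 109 CPM. The CPM ranges overlapped because distal sample 2 lay above proximal samples 2 and 4. After the scaling used in the test, distal sample 2 was 0.13 above the gene's mean log2 CPM. Proximal samples 2 and 4 were then 0.11 and 0.17 above it. The log2 ratios within numbers below are of CPM without that scaling. The means were 95.3 ± 22.6 and 120 ± 18.6 CPM (SD, n = 3 each), with a log2 fold change of -0.45 (95% interval -0.87 to -0.03, edgeR adjusted p = 0.0992). The blocked fit gave -0.47 (SE 0.15, edgeR adjusted p = 0.0191, but 0.251 in DESeq2 with the block), although the log2 ratios within numbers 2, 3 and 4 were 0.11, -0.94 and -0.24, not all in one direction. Without distal sample 2 the unpaired value was -0.65 and passed (edgeR adjusted p = 0.0288). Without distal sample 3 it was -0.29 (adjusted p = 0.243), and without both samples numbered 3 it was -0.17 (adjusted p = 0.51).

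**Figure D2:**
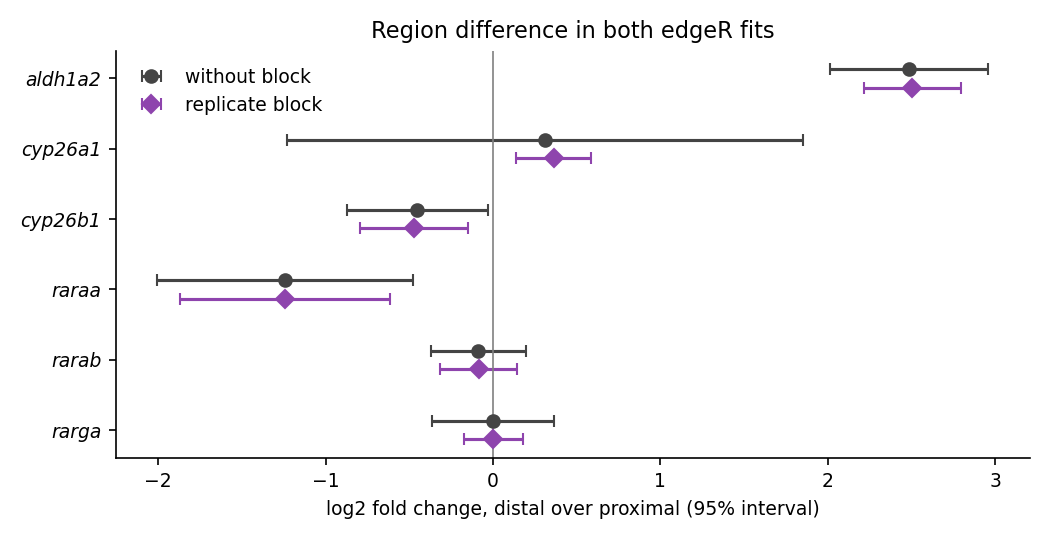
Log2 fold change of distal over proximal tissue for the 6 genes (horizontal axis) with its 95% interval, from the edgeR fit without a block (circles) and with the replicate number as a block (diamonds). The interval of cyp26a1 narrows from -1.23 to 1.85 without the block to 0.14 to 0.59 with it, and both intervals of rarab and rarga contain 0.

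Set against each other within a library, the reads of aldh1a2, cyp26a1 and cyp26b1 do not depend on the scaling between libraries. Gene lengths were not used, so these ratios compare samples and not the abundance of 1 transcript with another. For each aldh1a2 read there were 11.3, 4.74 and 4.68 reads of cyp26a1 and cyp26b1 together in distal samples 2, 3 and 4. In proximal samples 2, 3 and 4 there were 63.9, 20.6 and 35.0. The lowest proximal ratio was above the highest distal one, in the direction of the aldh1a2 difference already given. The ratios leave out the synthesis gene aldh1a3, with means of 85.9 CPM in distal and 52.7 CPM in proximal samples. They also leave out the breakdown gene cyp26c1 (71.4 and 10.5 CPM), so they do not describe all synthesis and breakdown reads. The gap between the regions holds for aldh1a2, cyp26a1 and cyp26b1 alone. It does not carry over to the set with aldh1a3 and cyp26c1 added. With cyp26b1 alone the distal samples lay close together at 2.03, 1.36 and 1.90 reads per aldh1a2 read, and the proximal samples at 13.02, 11.7 and 17.7. The ratio of cyp26a1 to cyp26b1 reads was 4.59 and 3.91 in distal and proximal sample 2, 2.48 and 0.755 in those numbered 3, and 1.46 and 0.983 in those numbered 4. It was highest in the samples numbered 2 of both regions, and within each number it was higher in the distal sample. These ratios are descriptions without a test.

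**Figure D3:**
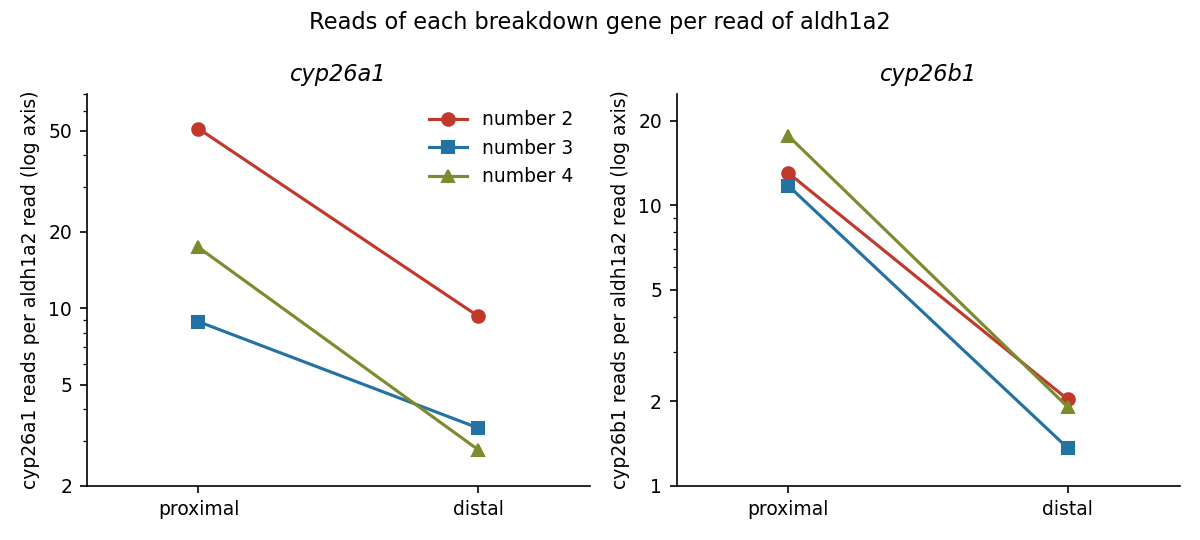
Reads of cyp26a1 (left) and cyp26b1 (right) per read of aldh1a2 in each sample, on log axes, with lines joining samples of one number. All lines fall from proximal to distal, and for cyp26a1 the samples numbered 2 are the highest of their region.

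The receptor gene raraa, one of the zebrafish copies of retinoic acid receptor alpha, was scarce and lower in distal tissue. It had 10, 12 and 16 reads in distal samples 2, 3 and 4 (0.466, 0.537 and 0.795 CPM). Proximal samples 2, 3 and 4 had 31, 23 and 33 reads (1.31, 1.05 and 1.54 CPM). Every proximal sample was above every distal sample. The level was 2.36-fold higher in proximal tissue, with means of 0.599 ± 0.174 CPM in distal and 1.30 ± 0.243 CPM in proximal samples (SD, n = 3 each; log2 fold change -1.24, SE 0.33, edgeR adjusted p = 0.0248). The call was fragile. Leaving out distal sample 2 or 3 or proximal sample 2 or 4 raised the edgeR adjusted p to 0.0901, 0.0865, 0.0712 and 0.0733. Log2 fold changes were between -1.23 and -1.07 in these fits. The part of low counts and of the smaller number of samples in this was not tested. The blocked fit called it (edgeR adjusted p = 0.00353), and DESeq2 with the block did not (adjusted p = 0.0632).

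The other alpha copy, rarab, was at 15.6, 16.4 and 13.9 CPM in distal samples 2, 3 and 4. Proximal samples 2, 3 and 4 had 13.7, 17.1 and 14.1 CPM. The regions overlapped throughout, and no difference was called (log2 fold change -0.09, 95% interval -0.37 to 0.20, edgeR adjusted p = 0.639, and 0.03 with library size alone as the scaling). The gamma receptor gene rarga was at 191, 225 and 161 CPM in distal samples 2, 3 and 4. In proximal samples 2, 3 and 4 it was at 162, 222 and 149 CPM. The samples numbered 3 were the highest and those numbered 4 the lowest in both regions. The region difference of rarga was not called (log2 fold change -0.002, 95% interval -0.37 to 0.36, edgeR adjusted p = 0.996), and its sign flipped between alternatives, to 0.12 with library size alone. With the block the interval was -0.18 to 0.18. These intervals bound the difference and do not show equal levels.

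Among the reads of the 3 receptor genes, rarga took 92.3 ± 0.673% in distal and 91.5 ± 0.976% in proximal samples (SD, n = 3 each). The share of rarab was 7.40 ± 0.567% and 7.80 ± 0.729%, and that of raraa 0.300 ± 0.132% and 0.705 ± 0.251%. Longer transcripts collect more reads, so these shares describe reads and not molecules.

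The other genes of the pathway were read from lists by role: 66 of 69 listed symbols matched the name table, giving 69 identifiers, of which 43 passed the filter on low counts. Of these 43, 13 passed the test with more transcript in distal tissue and 10 with more in proximal tissue, or 53.5% called, beside 29.7% of all tested genes. Their median log2 fold change was 0.14, beside -0.01 over all tested genes. With the block 30 of 43 were called (69.8%), 19 toward distal and 11 toward proximal tissue, beside 48.4% of all tested genes (23.3% and 25.1%). Where the name table gives several identifiers the same symbol, the identifier is stated.

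**Figure D4:**
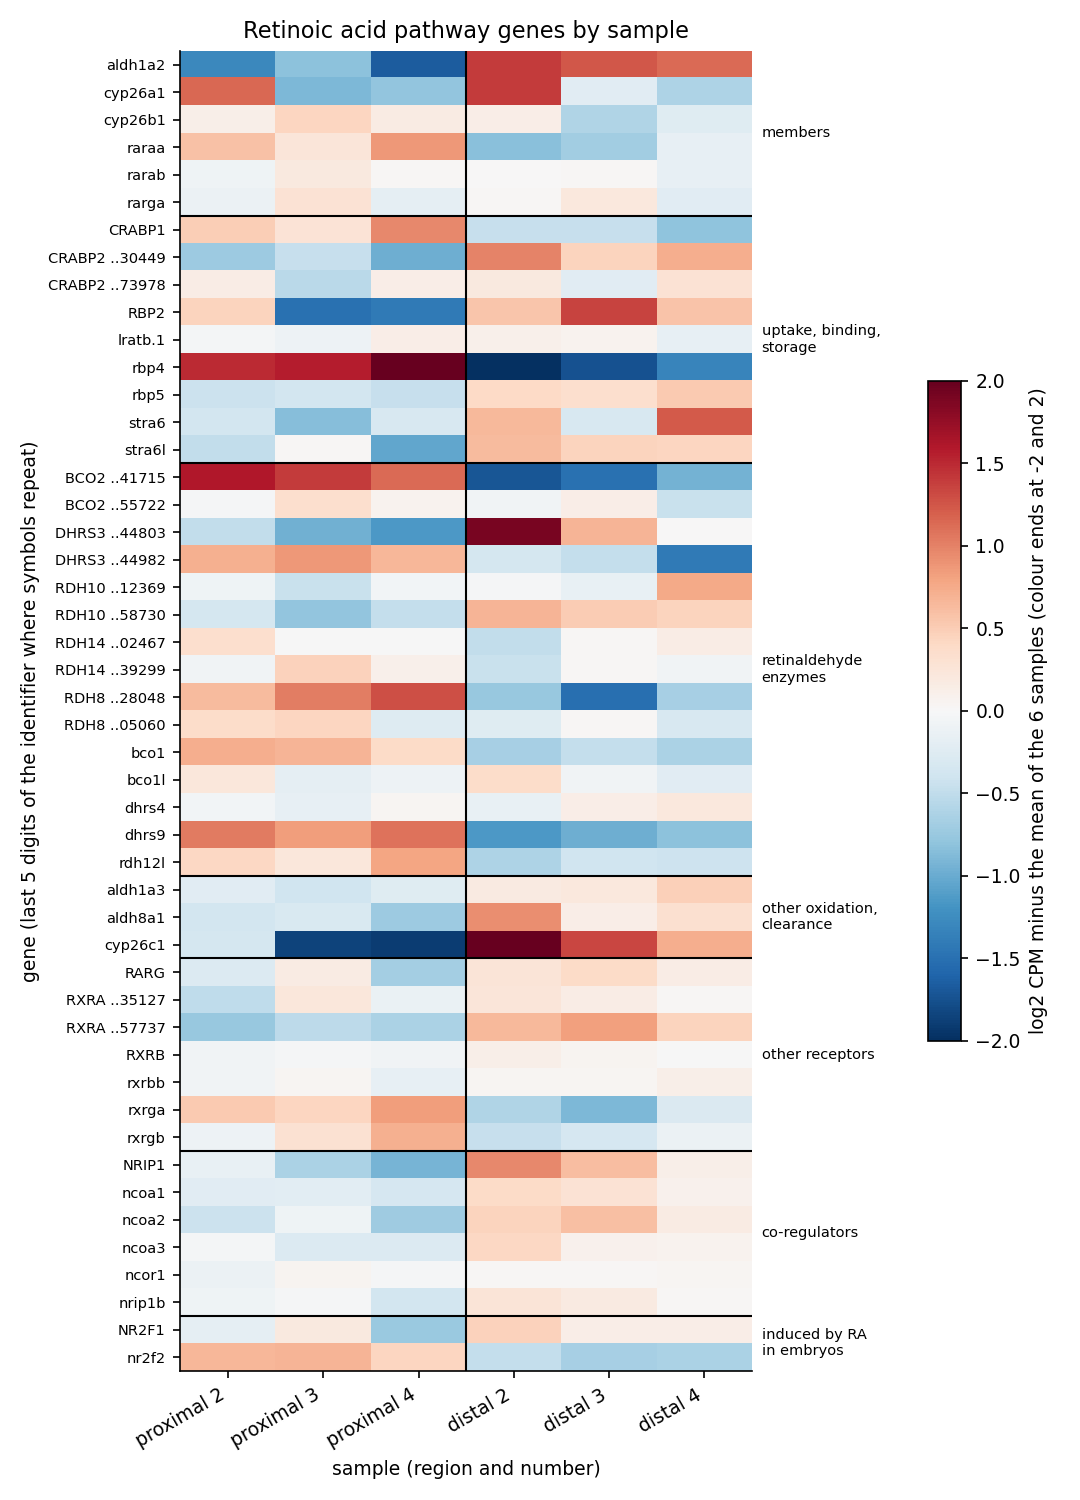
Log2 CPM of the 6 genes and 42 of the 43 tested genes of the pathway lists (rows, grouped by role) in each sample (columns), as the difference from the gene's mean over the 6 samples, with colours ending at -2 and 2. Among the genes with wide differences are rbp4 and BCO2, which are high in proximal samples, and cyp26c1 and aldh1a2, which are high in distal samples.

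Oxidation to retinoic acid and its clearance beyond the 6 genes comprised 3 listed genes. Of these, 3 of 3 were called toward distal tissue, beside 15.3% of all tested genes. The third Cyp26 gene, cyp26c1, was at 106, 66.4 and 42.2 CPM in distal samples 2, 3 and 4. Proximal samples 2, 3 and 4 had 18.6, 6.77 and 6.05 CPM. The regions did not overlap, the samples numbered 2 were the highest of their region, and the level was 6.27-fold higher in distal tissue (log2 fold change 2.65, SE 0.49, edgeR adjusted p = 0.00494). Leaving out single samples gave values from 2.24 without distal sample 2 to 3.36 without proximal sample 2, all called, and without both samples numbered 3 the call was lost (2.48, edgeR adjusted p = 0.0531). The synthesis gene aldh1a3 was at 78.6, 82.9 and 96.2 CPM in distal and 55.0, 50.8 and 52.3 CPM in proximal samples 2, 3 and 4, a 1.498-fold difference (edgeR adjusted p = 0.0059). aldh8a1, a related aldehyde dehydrogenase gene, was 2.02-fold higher in distal tissue (2.35 ± 0.717 against 1.07 ± 0.207 CPM, SD, n = 3 each, edgeR adjusted p = 0.0365). Its call was lost in 8 of the 16 alternative fits that tested it, with adjusted p-values up to 0.231. Among these were the edgeR fits without distal sample 2 or any 1 proximal sample (adjusted p from 0.063 to 0.132). The blocked fit kept the call of aldh8a1 (log2 fold change 0.997, edgeR adjusted p = 0.00558).

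Of 9 tested genes for retinoid uptake, binding and storage, 3 were called toward distal tissue and 2 toward proximal tissue. Among all tested genes these shares were 15.3% and 14.4%. The retinol carrier gene rbp4, whose protein transports retinol between cells and tissues, was at 9.64, 14.8 and 19.2 CPM in distal samples 2, 3 and 4. Proximal samples 2, 3 and 4 had 126, 137 and 209 CPM. It was 11.9-fold higher in proximal tissue, the largest difference of the 43 genes (log2 fold change -3.57, SE 0.31, edgeR adjusted p = 0.000124). The receptor gene for this carrier, stra6, leaned the other way, with 6.33, 3.31 and 9.50 CPM in distal and 2.88, 2.10 and 2.84 CPM in proximal samples 2, 3 and 4 (2.25-fold higher in distal tissue, edgeR adjusted p = 0.0495). The call for stra6 was lost in 8 of 17 alternative fits, with adjusted p-values up to 0.222. Among these were limma-voom (adjusted p = 0.103) and the edgeR fits without distal sample 2, distal sample 4 or any 1 proximal sample (adjusted p from 0.0742 to 0.132). Without distal sample 4 the log2 fold change of stra6 fell from 1.17 to 0.76. The cellular retinol-binding gene rbp5 was 1.80-fold higher in distal tissue (34.1 ± 1.85 against 17.4 ± 1.30 CPM, SD, n = 3 each, edgeR adjusted p = 6e-04).

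The cellular retinoic acid-binding genes, whose proteins carry retinoic acid inside cells, differed among themselves. One identifier listed as CRABP2 (ENSDARG00000030449) was at 114, 80.5 and 94.0 CPM in distal samples and at 32.1, 40.1 and 25.7 CPM in proximal samples 2, 3 and 4, which is 2.73-fold higher in distal tissue (edgeR adjusted p = 0.000721). The other CRABP2 identifier (ENSDARG00000073978) had 271 ± 44.3 CPM in distal and 222 ± 49.8 CPM in proximal samples (SD, n = 3 each), and its difference was not called (log2 fold change 0.16, edgeR adjusted p = 0.604). The tested CRABP1 identifier (ENSDARG00000035904) was 2.28-fold higher in proximal tissue (3.17 ± 0.470 against 6.63 ± 1.43 CPM, SD, n = 3 each, edgeR adjusted p = 0.006, and 0.0634 without both samples numbered 2). The difference between these differences was not tested.

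Genes listed for retinaldehyde formation and reduction included carotenoid-cleaving genes such as BCO2. Of the 15 tested, 6 were called toward proximal and 2 toward distal tissue. Among all tested genes 14.4% and 15.3% were. The median log2 fold change of the 15 genes was -0.34. The carotenoid-cleaving genes bco1 and BCO2 (ENSDARG00000041715) were 2.29-fold and 6.86-fold higher in proximal tissue (edgeR adjusted p = 0.000278 and 0.000103). The short-chain dehydrogenase gene dhrs9 was 3.93-fold higher in proximal tissue, with 8.57, 10.02 and 10.8 CPM in distal and 36.7, 33.1 and 36.3 CPM in proximal samples 2, 3 and 4 (edgeR adjusted p = 3.55e-05). RDH8 (ENSDARG00000028048) was 4.29-fold and rdh12l 1.96-fold higher in proximal tissue (edgeR adjusted p = 0.00277 and 0.00261). In the other direction, RDH10 (ENSDARG00000058730), for the enzyme that oxidises retinol in embryos, was 2.12-fold higher in distal tissue (edgeR adjusted p = 0.00126). Its means were 18.9 ± 1.54 CPM in distal and 8.21 ± 1.11 CPM in proximal samples (SD, n = 3 each). The other tested identifiers of BCO2 (ENSDARG00000055722), RDH8 (ENSDARG00000105060) and RDH10 (ENSDARG00000012369) were not called. Their log2 fold changes were -0.24, -0.42 and 0.44 (edgeR adjusted p = 0.356, 0.355 and 0.224). Of them only ENSDARG00000012369 passed with the block, toward distal tissue (0.41, edgeR adjusted p = 0.037). Every distal sample of this RDH10 identifier was above every proximal one.

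The identifiers listed as DHRS3, for a reductase that turns retinaldehyde back into retinol, were called in opposite directions. ENSDARG00000044803 was at 45.1, 20.001 and 12.1 CPM in distal samples 2, 3 and 4. Proximal samples 2, 3 and 4 had 7.999, 5.94 and 4.80 CPM. Its regions did not overlap, and it was 3.80-fold higher in distal tissue (log2 fold change 1.93, SE 0.46, edgeR adjusted p = 0.015). Without distal sample 2 the log2 fold change was 1.23 (edgeR adjusted p = 0.02), and without both samples numbered 3 the call was lost (2.05, adjusted p = 0.0862). ENSDARG00000044982 was 2.73-fold higher in proximal tissue, with 3.54, 3.31 and 1.64 CPM in distal and 6.98, 8.0001 and 6.42 CPM in proximal samples 2, 3 and 4 (edgeR adjusted p = 0.00539, and 0.0552 without both samples numbered 3).

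Of the other 7 receptor genes, all tested, 1 was called in each direction, or 28.6%, near the 29.7% of all tested genes. One RXRA identifier (ENSDARG00000057737) was at 10.9, 12.8 and 9.45 CPM in distal and at 3.81, 4.62 and 3.96 CPM in proximal samples 2, 3 and 4. It was 2.46-fold higher in distal tissue (edgeR adjusted p = 0.00073). The other RXRA identifier (ENSDARG00000035127) was not called (log2 fold change 0.25, edgeR adjusted p = 0.376). The retinoid X receptor gene rxrga was 2.34-fold higher in proximal tissue (1.72 ± 0.352 against 3.70 ± 0.433 CPM, SD, n = 3 each, edgeR adjusted p = 0.00647), a call lost without both samples numbered 2 or both numbered 3 (adjusted p = 0.0831 and 0.0506). The second identifier listed as RARG (ENSDARG00000054003) had 21.8, 24.5 and 20.1 CPM in distal and 14.0, 19.7 and 10.1 CPM in proximal samples 2, 3 and 4, and it passed with the block (log2 fold change 0.51, edgeR adjusted p = 0.0034) but not without it (0.49, edgeR adjusted p = 0.105).

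Among 7 co-regulator genes, all tested, 4 were called, each toward distal tissue (57.1%, beside 15.3% of all tested genes). Of the coactivator genes, ncoa2 was 1.74-fold higher in distal tissue (98.3 ± 16.7 against 52.0 ± 13.5 CPM, SD, n = 3 each, edgeR adjusted p = 0.0118). NRIP1 (ENSDARG00000068965), for a corepressor that binds receptors in the presence of ligand, was 2.23-fold higher in distal tissue (edgeR adjusted p = 0.0158). Of 17 alternative fits, 2 lost the call of ncoa2 and 3 that of NRIP1, with adjusted p-values up to 0.129 and 0.121. Among these were the edgeR fits without proximal sample 2 for ncoa2 (adjusted p = 0.0519) and without distal sample 2 for NRIP1 (adjusted p = 0.0589). Also called were ncoa1 and ncoa3 (log2 fold changes 0.52 and 0.39, edgeR adjusted p = 0.00989 and 0.0467). Of 17 alternative fits, 2 lost the call of ncoa1 and 7 that of ncoa3, with adjusted p-values up to 0.107 and 0.151. The corepressor gene ncor1 was not called (log2 fold change 0.05, edgeR adjusted p = 0.681).

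Of 16 identifiers of genes known to be induced by retinoic acid in zebrafish embryos, 14 did not pass the filter on low counts. Among them, hoxb1a had 0 reads in all libraries, the HOXB4 identifier at most 3 reads in a library, hoxb1b at most 8, HOXD4 (ENSDARG00000059276) at most 10 and meis3 at most 11. Of the 2 tested, nr2f2 was 2.31-fold higher in proximal tissue, with 3.91, 3.53 and 3.48 CPM in distal and 8.17, 8.55 and 6.56 CPM in proximal samples 2, 3 and 4 (edgeR adjusted p = 0.00101). The tested NR2F1 identifier (ENSDARG00000052695) was not called without the block (log2 fold change 0.44, edgeR adjusted p = 0.194). It passed toward distal tissue with the block (0.46, edgeR adjusted p = 0.0325).

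The replicate number itself was tested in an edgeR fit of region and number together, chosen after the values of cyp26a1 had been seen. Each number holds 1 distal and 1 proximal pool, so this compares pools of fins, and the labels do not say what differs between the numbers. For cyp26a1 the number 2 samples were 3.55-fold above those numbered 3 and 3.93-fold above those numbered 4 (edgeR adjusted p = 2.04e-06), the 18th smallest p-value of 18455 genes. Of the 6 genes, cyp26a1 and rarga passed (adjusted p = 0.0235 for rarga), beside 14.8% of all tested genes. In the pathway lists 7 of 43 passed, or 16.3%, a share near that background. In cyp26c1 (adjusted p = 0.000187), DHRS3 (ENSDARG00000044803; adjusted p = 0.00275) and NRIP1 (ENSDARG00000068965; adjusted p = 0.0157) the samples numbered 2 were the highest of their region, as for cyp26a1. In stra6, rbp4, ncoa2 and the CRABP2 identifier ENSDARG00000073978 the order of the numbers was another. For aldh1a2 the number was not called (adjusted p = 0.184).

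**Figure D5:**
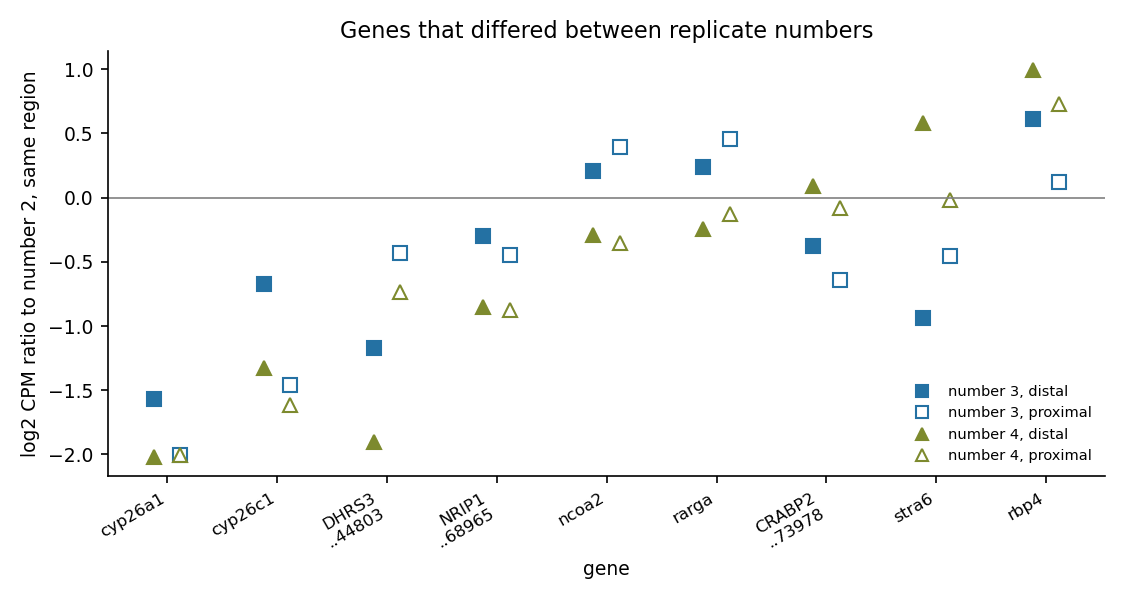
Log2 ratio of the CPM in samples numbered 3 (squares) and 4 (triangles) to the sample numbered 2 of the same region (vertical axis), for the 9 genes among the 6 and the pathway lists that differed between numbers; filled marks are distal and open marks proximal. All 4 marks lie below 0 for cyp26a1, cyp26c1, DHRS3 (ENSDARG00000044803) and NRIP1.

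The genes whose log2 CPM over the 6 samples followed the 3 metabolic genes most closely were looked up among 9661 named genes with a mean of at least 10 CPM. Closest to aldh1a2 were ADAMTS10, ZFHX4 and TSHZ3, each with a Pearson correlation of 0.999 and higher levels in distal tissue (58.0 against 20.3, 61.8 against 15.4 and 110 against 32.3 CPM). Closest to cyp26a1 were MVP, TMEM30A and MOGS (0.986, 0.985 and 0.979), but their levels moved little: MVP ranged only from 154 to 202 CPM. Closest to cyp26b1 were hnrnpa1a, OSTF1 and hcfc1b (0.983, 0.970 and 0.966), which also moved less than it did. Their levels ranged from 125 to 140, 88.3 to 121 and 76.7 to 95.5 CPM, beside 74.1 to 142 CPM for cyp26b1. With 6 samples from 2 regions and 3 numbers such correlations are descriptions, since the points group by region and by number.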

How the data were processed

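Per the labels' protocols, RNA was isolated in TRIzol and sequencing libraries came from a kit for stranded mRNA. The deposited files hold raw read counts per Ensembl gene, 1 file a sample. TopHat2, HTSeq and the build GRCz11 are named in the submitters' processing notes; versions, annotation release and strand setting are not given in the sources used here, and reads of overlapping genes on opposite strands could not be checked. No coordinates or sequences are printed, since the gene table used is of another assembly, and the planned promoter search was not run. The line with an empty identifier equalled the gene total in each file and was left out, as were the category lines of unassigned reads. Symbols were matched for 29178 of 31901 identifiers. The table often gives human-style symbols, so listed symbols were matched ignoring case, and where that failed without the final paralog letter; rarga is listed as RARG.

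CPM were computed over the gene-assigned reads. Counts were filtered with filterByExpr (minimum count 10), scaled by TMM and tested with the quasi-likelihood F-test of edgeR 4.0.16 in R 4.3.3 over 18455 genes, with Benjamini-Hochberg adjustment and a threshold of 0.05. Fold changes are from this fit, and the SE is the absolute log2 fold change divided by the square root of F. The median log2 fold change was -0.01 with TMM and 0.11 with library size alone, a shift of 0.12. Same-numbered samples deviated together (correlations of 0.42, 0.56 and 0.68 for numbers 2, 3 and 4), so the numbers were taken as pairs in the blocked fit; the labels do not say whether they share fins. Replicates are pools of fins; nothing says whether they came from separate clutches or days, so p-values measure the spread between these pools. Alternatives used DESeq2 1.42.0 and limma 3.58.1; code was tested on simulated data. Named in the text were the 6 genes and up to 20 called pathway genes by absolute log2 fold change. Also named were the 3 nearest genes to each of aldh1a2, cyp26a1 and cyp26b1. Chosen after their values were seen were aldh1a3, ncoa1, ncoa3 and uncalled genes given for contrast. Genes, lists and tests were chosen with earlier results of these data known. Intervals and floors cover counting or sample error only. Some listed genes are not reported here by name.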

Additional observations from a re-analysis of the deposited data

How the results depend on the processing

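There were 17 alternative fits: other scalings, filters and tests, the replicate block, each sample left out in turn and, added after seeing the data, DESeq2 with the block and fits without both samples of a number. The direction and call of aldh1a2 held in all 17. raraa was not tested at a mean of at least 50 counts, which it does not reach.

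With the replicate block the called genes rose from 5480 to 8938 (4306 toward distal, 4632 toward proximal), cyp26a1 and cyp26b1 became called at 0.36 and -0.47, and rarga was at 0.0028; the block changed the call of no other of the 6 genes. DESeq2 with the block gave 0.37 (called) for cyp26a1, -1.25 (not called) for raraa and 0.0062 for rarga. The uncalled value of rarga, -0.0016, and that of rarab, -0.09, also turned positive with library size alone (0.115 and 0.032), and rarga without a filter (0.00016), in the DESeq2 Wald test (0.00077) and in limma-voom (0.0030).

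Without both samples numbered 2, 2231 genes were called (1243 and 988 toward distal and proximal), 8 pathway genes toward distal, and raraa stood at -1.09, not called. Without both numbered 3, 2932 genes were called (1699 and 1233), 15 pathway genes of which 7 toward distal, raraa was at -1.29, not called, and rarga at 0.064. Without both numbered 4, rarga was at 0.017. The fits have fewer samples; beyond that the cause was not tested.

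Single samples were left out of the unpaired fit, so the partner of the same number stayed in. This gave log2 fold changes of -0.56 to 1.31 for cyp26a1, -0.65 to -0.29 for cyp26b1 and -1.497 to -1.07 for raraa. For rarab they were -0.14 to 0.0035 and for rarga -0.11 to 0.17. Called genes numbered 3807 to 5093, 2061 to 2650 toward distal and 1746 (without distal sample 3) to 2443 toward proximal; called pathway genes numbered 19 to 22.

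Of the 23 called pathway genes, 12 stayed called in every alternative that tested them; of 389 alternative values 36 lost the call and 0 changed direction. The gene raraa had 10 to 33 reads a library, which limits its precision.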
